A study of Mus musculus with 12 samples.

Results

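An alternative 3′ splice site is one of several acceptors at which the spliceosome can begin the same exon, so that the choice between them lengthens or shortens the exon at its upstream end. The acceptor is recognised by the U2AF heterodimer, which binds the pyrimidine tract and the AG dinucleotide, while the branch point upstream is bound first by SF1 and then by the SF3A and SF3B complexes of the U2 snRNP. Late in splicing, RNA helicases and factors of the second step such as SLU7 and PRPF18 take part in fixing which AG is used. Competing acceptors that lie close together often differ by a small stretch of coding sequence, and regulators such as PTBP1, HNRNPC and the SR proteins shift the balance between them.

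The sites described here come from whole mouse lungs of strain C57BL/6, flash frozen and sequenced as bulk RNA at 2 embryonic (E15.5 and E18.5) and 2 postnatal (P5 and P8) time-points, with 3 libraries at each and 12 in all. No animal was treated, both sexes were used, and the 3 animals of each time-point were littermates, so litter and time-point cannot be told apart and the p-values measure the spread between littermates. Inclusion of each site is given as percent spliced in (PSI), the share of reads using that site among the reads of the sites it competes with, after a correction by VAST-TOOLS for how many positions of each junction can be mapped. Of 155519 alternative 3′ splice sites in the PSI table, 3285 sites in 1653 linked events were selected on reads and on mean PSI: PSI known in every library, a coverage score other than N, at least 10 corrected reads in each of the 12 libraries and a mean PSI over all 12 libraries from 5% to 95%. The whole table holds 661162 events of 4 types, and the same rule left 13981 of them. The differences between time-points were not used to choose the sites.

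The rule removed mostly sites that were almost never or almost always used. Of 80322 sites with known PSI and a usable score, 360 had under 10 reads in at least 1 library, and of the other 79962, 46033 had a mean PSI under 5% and 30644 had one above 95%. The sites nearest to the limits had mean PSI of 4.99% and 5.003% at the lower one and 94.99% and 95.01% at the upper one. A PSI of 0% in all 12 libraries was listed for 26513 sites and one of 100% for 15084. Among the 3285 sites kept, 548 had a mean PSI from 5% to 10%, 591 from 10% to 25%, 1031 from 25% to 75%, 565 from 75% to 90% and 550 above that.

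Most events were a choice between a pair of acceptors. Of the 1653 events, 1523 had 2 sites among those kept, 76 had 1, 53 had 3 and 1 had 4, and 1731 of the 3285 sites belonged to events with just 2 listed acceptors. In 1141 of the 1523 events the PSI of the kept pair summed to 100% within 0.05 percentage points in every library, so a rise of one site is the fall of the other, and counts of sites count most changes double. The exon that carries the acceptors was nearly constitutive in most events, with a mean inclusion of at least 95% in 1513 events, from 50% to 95% in 112 and under 50% in 28. The median was 86 corrected reads per site and library (range 10 to 19925), and the library medians lay between 69 and 105. Intervals and limits at 0 given here cover counting error only.

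The spread between littermates was larger than the counting error. The median SD of PSI over the 3 libraries was 6.1, 5.63, 4.86 and 5.49 percentage points in order of age, against 3.52, 3.71, 3.92 and 3.8 points expected from the reads alone. Over the 4 time-points together the replicate SD was 1.81 times the counting SD at the median site, and over 2 times for 35.3% of sites. The 822 sites with the fewest reads (median 41.8 per library) had a median replicate SD of 9.84 points, and the 821 with the most (median 250.5) had 4.16 points.

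Libraries differed in markers of tissues next to the lung, and these values stand beside the results that use them. The lung markers Nkx2-1, Sftpc, Ager, Pecam1 and Col1a1 were present in every library. The summed level of 6 heart muscle genes was 1140 and 1432 CPM (counts scaled to library size) in E15.5 replicates 1 and 2 and 58.6 in replicate 3, between 56.1 and 93.0 at E18.5 and between 116 and 381 after birth. None of the 6 heart genes was at 0 in all libraries of any time-point. The summed level of 12 thymus and T cell genes was 45.3 CPM in E15.5 replicate 2 against 5.02 and 5.86 in the other E15.5 libraries, 4.5 to 4.84 at E18.5 and 19.7 to 29.3 at P5. At P8 it was 253 and 474 CPM in replicates 1 and 2 and 29.7 in replicate 3. At E18.5, 1 of the 12 thymus genes was at 0 in all 3 libraries, and at the other time-points none was. Markers of cell types within the lung moved across birth as well. The sum of 3 blood and immune genes was 967 to 1082 CPM at E18.5 and 2597 to 4950 CPM after birth. That of 2 endothelial genes was 458 to 502 and 940 to 1123 CPM, and that of 2 epithelial genes 404 to 455 and 232 to 311 CPM. The epithelial fall was that of Epcam (204.9 to 214.0 and 60.9 to 73.8 CPM), while Cdh1 overlapped (198.9 to 247.6 and 170.7 to 242.2 CPM). Sftpc, a marker of alveolar epithelial cells, rose from 1079 to 1819 CPM at E18.5 to 9644 to 13186 CPM after birth. Ager was also higher in every postnatal library than in any of E18.5. Epithelial marker RNA thus did not fall as a whole. The part of these shifts in the changes of PSI was not tested. In bulk tissue, a PSI that changes within a cell type, fewer cells of a type and less RNA per cell cannot be told apart.

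Few of the sites had a PSI difference that exceeded 10 points with a probability of 0.95. Change was measured by a minimum value (MV) recomputed after that of VAST-TOOLS, which the study used: the size that the PSI difference exceeds with a probability of 0.95 given the reads of each library, here over all 9 pairs of libraries of each of the 6 comparisons. An MV of at least 10% was reached by 24 sites in 14 events, which is 0.731% of the 3285 sites and 0.847% of the events. Over all 13981 events of the rule, 2.47% reached it. The count of sites was 45 with libraries compared by matched replicate number (replicate block), and leaving out 1 library raised it to between 31 (without P8 replicate 1) and 67 (without E15.5 replicate 3). The share was 1.56% for alternative 5′ splice sites (36 of 2302), 4.67% for alternative exons (206 of 4411) and 1.98% for retained introns (79 of 3983).

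By comparison, the interval before birth had 2 called sites in 1 event, the one across birth (E18.5 to P5) 5 sites in 3 events and the postnatal one 2 sites in 1 event. The shares of all events called in these intervals were 0.107%, 1.05% and 0.0715%. The order of the intervals did not hold for the sites: the counts before, across and after birth were 11, 8 and 4 with matched replicate numbers, 0, 5 and 0 with uncorrected reads, and 20, 5 and 2 without E15.5 replicate 3. Leaving out E15.5 replicate 1 or 2 or E18.5 replicate 3 also put the interval before birth first, with 14, 18 and 14 sites, while leaving out E18.5 replicate 2 gave 6 before birth and 19 across it. Over the longer spans, 7 sites in 5 events were called between E15.5 and P5, 11 sites in 6 events between E15.5 and P8 and 4 sites in 2 events between E18.5 and P8, where 1.32%, 1.27% and 1.01% of all events were. The 3 comparisons with E15.5 share its libraries, as do those with each other time-point.

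A model fitted to all 12 libraries called mostly other events. In limma on the log2 odds of inclusion, with one fit of all 13981 events, the F-test over the 4 time-points had an adjusted p under 0.05 for 22 sites in 12 events (0.67% of the sites), against 2.57% of all events. Both measures called 2 events, those of Epb41 and Ppp3ca. The contrast of P5 with E18.5 passed the same threshold for 4 sites in 2 events, against 1.32% of all events, and that of P8 with E15.5 for 19 sites in 10 events, against 2.2%. Between E15.5 and E18.5 and between P5 and P8, limma called 0 sites at adjusted p under 0.05, with 232 and 99 sites at an unadjusted p under 0.05 (7.06% and 3.01%). The background was 0.0143% and 0% of all events in these contrasts, and the lowest adjusted p of a site was 0.086 and 0.7. The MV called 1 event in each of these intervals.

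**Figure D1:**
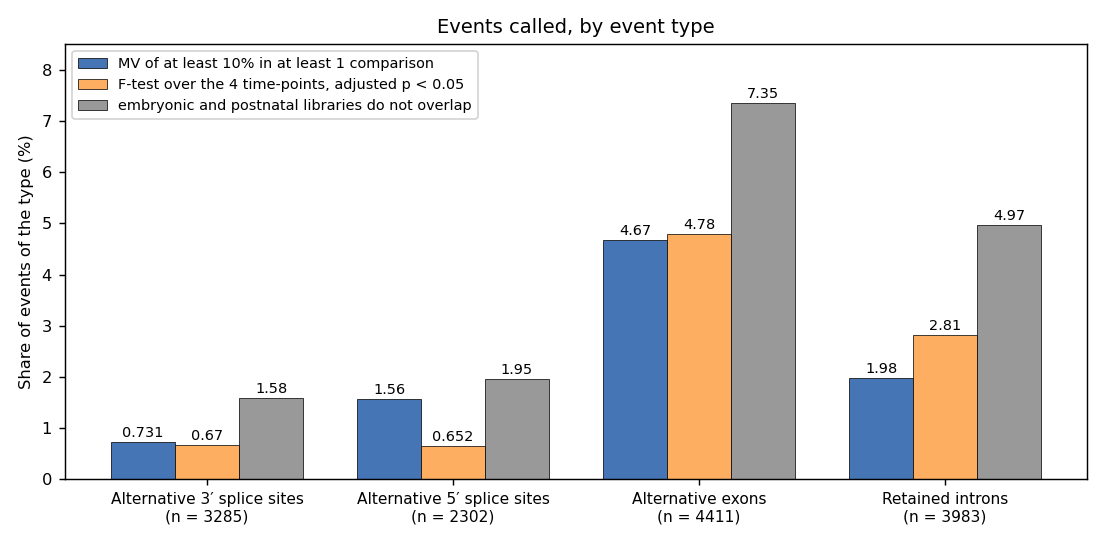
Share of events of each type (vertical axis, %) past an MV of 10% in any of the 6 comparisons (blue), an adjusted p under 0.05 in the limma F-test (orange) and no overlap of PSI between the 6 embryonic and the 6 postnatal libraries (grey). Splice sites are counted by site, not by linked event. Alternative 3′ splice sites lie at 0.731%, 0.67% and 1.58% of sites, and alternative exons at 4.67%, 4.78% and 7.35%. By linked event the shares of the 3′ splice sites are 0.847%, 0.726% and 1.75%.

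Observed differences in mean PSI were small at most sites. The median absolute difference in mean PSI was 3.94 percentage points before birth, 3.93 across birth and 3.57 after it. A difference of at least 10 points was seen at 532, 535 and 425 sites (16.2%, 16.3% and 12.9%), most of them without a call. For alternative exons the corresponding medians were 3.98, 5.27 and 3.18 points, and for retained introns 3.33, 3.49 and 2.59. The largest of the 3 steps was the one before birth for 36.1% of the 3′ splice sites, the one across birth for 35.1% and the last for 28.8%. Over the whole course, the mean PSI of 750 sites (22.8%) stayed within a range of 5 points and that of 272 sites spanned at least 20 points.

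Observed differences were larger where reads were fewer. From E18.5 to P5, 30.3% of the 822 sites with the fewest reads differed by at least 10 points, 17.9% and 11.3% of the next groups of 821 and 5.6% of the 821 with the most. MV calls in these 4 groups, from fewest to most reads, numbered 7, 2, 9 and 6 sites, and F-test calls 5, 2, 5 and 10.

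**Figure D2:**
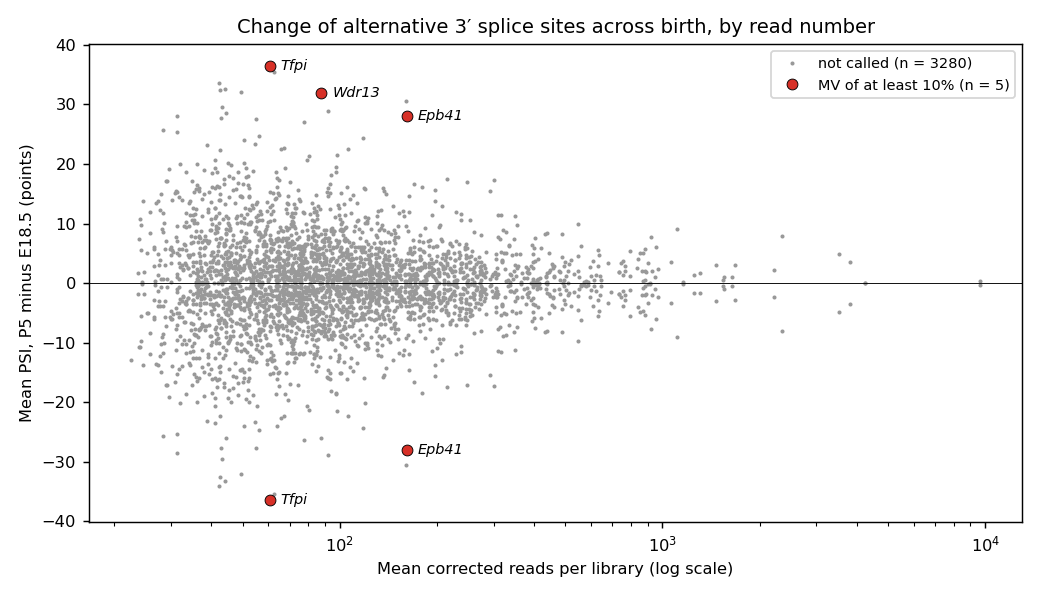
Difference in mean PSI between P5 and E18.5 (vertical axis, percentage points) against the mean corrected reads per library (horizontal axis, log scale) for the 3285 sites, with the 5 sites called by MV in red. Linked sites appear as mirror images, and the called sites of Tfpi, Epb41 and Wdr13 lie at 28.0 to 36.5 points above or below 0.

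The study's own tables of differentially spliced events, from its run of VAST-TOOLS, pair 26 of the 1653 events with a gene symbol, and these 26 host genes include those of all 14 called events. Because the study chose them on these same libraries, the counts by role that follow are a description. A called site was found in 6 of 8 genes of adhesion, cytoskeleton and matrix (Enah, Epb41, Frem1, Lrp4, Magi1 and Tfpi), 2 of 5 genes that act on RNA, DNA and chromatin (Adarb1 and Alkbh1), 5 of 9 genes of ubiquitin, signalling and transport (Ahcyl1, Cox18, Il3ra, Ppp3ca and Tmem131) and 1 of 4 other genes (Wdr13). In the other 12 genes, which are in those tables too, the largest recomputed MV of a site in any comparison lay between 0% and 9%. Positions below are those of the host gene in Gencode vM21 (GRCm38, the mm10 build), since the coordinates of the acceptors themselves were not used here.

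Epb41 (chromosome 4, 131923413 to 132075321, minus strand) encodes a protein that ties the spectrin and actin skeleton to the plasma membrane, and its first listed acceptor had the largest MV of the 14 events. Its PSI was 39.4%, 50.3% and 34.6% at E15.5 and 38.6%, 45.9% and 38.7% at E18.5, then 79.4%, 67.2% and 60.8% in the P5 libraries and 75.9%, 76.5% and 81.4% in those of P8. Every postnatal library lay above every embryonic one. P5 replicate 1, the highest of its time-point, was also the library with the most blood and immune marker RNA (4950 CPM). It had the most Epb41 RNA too (220.4 CPM, against 154 and 152 CPM in the other P5 libraries). Of that sum in P5 replicate 1, Hba-a1 made up 4893 CPM and Ptprc 56.9 CPM. The blood and immune sum was higher at P5 (3010 to 4950 CPM) and P8 (2597 to 3338 CPM) than at E18.5 (967 to 1082 CPM). From P5 to P8 the range of the sum moved down while the mean PSI rose. Within P8, replicate 3 had the highest PSI, with a sum of 2991 CPM against 3338 CPM in replicate 1. Whether blood content bears on the rise in PSI was not tested. The mean of the E18.5 libraries was 41.1% ± 4.2 (SD, n = 3), and after birth it rose to 69.1% ± 9.43 (P5, MV 11%) and 77.9% ± 3.0 (P8, MV 25%, and 24% to 29% with a library left out). At E15.5 the mean was 41.5% ± 8.05, with an MV of 0% against E18.5. The limma F-test gave an adjusted p of 0.017 and the contrast of P8 with E15.5 one of 0.016, while that of P5 with E18.5 missed the threshold (adjusted p = 0.09). The F-test adjusted p was 0.044 with the replicate block, 0.053 without P8 replicate 3 and 0.11 without P8 replicates 1 and 2. Each library had 121 to 203 reads at this event, the exon was included at 100% throughout, and this was the sole event with an MV of at least 20%. The gene itself was at 158 CPM at E18.5 and 175.5 at P5 (log2 fold change 0.24 ± 0.13 SE, FDR = 0.12 in edgeR).

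Magi1 (chromosome 6, 93675455 to 94283917, minus strand) encodes a PDZ scaffold of epithelial and endothelial junctions. The first of its 3 listed acceptors was at 57.1%, 61.2% and 41.9% at E15.5 and 48.8%, 90.4% and 66.7% at E18.5, then 86.1%, 85.4% and 95% in the P5 libraries and 90.6%, 96.2% and 84.2% in those of P8. The E15.5 libraries all lay below the postnatal ones, while the E18.5 libraries were spread from the E15.5 range into the postnatal one. The rise had an MV of 14% between E15.5 and P5 and 16% between E15.5 and P8, and the F-test did not pass (adjusted p = 0.17). The exon that carries these acceptors was itself alternative, with an inclusion between 61.4% and 84.0%.

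Enah (chromosome 1, 181896384 to 182019990, minus strand) encodes an Ena/VASP protein that promotes actin filament growth at the leading edge of cells. The first of its 4 listed acceptors was at 77.4%, 80.5% and 77.1% at E15.5 and 92.1%, 92.9% and 87.2% at E18.5, then 95.4%, 100% and 98.2% in the P5 libraries and 95.5%, 90.8% and 97.0% in those of P8. All 9 later libraries lay above the 3 at E15.5. The rise from 78.3% ± 1.9 (SD, n = 3) to 97.8% ± 2.33 at P5 had an MV of 10%, which was 9% without P5 replicate 2. The F-test gave an adjusted p of 0.061.

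Frem1 (chromosome 4, 82897920 to 83052339, minus strand), a protein of the basement membrane matrix, was at 66.2%, 56.9% and 68.0% at E15.5 for the first of its acceptors. Later libraries were at 82.9%, 92.3% and 76.9% (E18.5), 81.9%, 72.2% and 85.7% (P5) and 90.6%, 84.1% and 84.8% (P8), all above those at E15.5. The call was from E15.5 to P8 (MV 10%, and 9% without P8 replicate 1), with an F-test adjusted p of 0.2.

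Lrp4 and Tfpi changed in the other direction for the acceptor listed first. Lrp4 (chromosome 2, 91457511 to 91513779, plus strand) encodes a receptor of the LDL receptor family that binds agrin and Wnt antagonists. Its site was at 18.7%, 51.5% and 33.4% at E15.5 and 55.8%, 48.7% and 60.2% at E18.5, then 23.3%, 21.6% and 31.2% in the P5 libraries and 11.3%, 5.29% and 27.8% in those of P8. It was highest at E18.5, where all 3 libraries lay above all postnatal ones, and the fall to P8 had an MV of -14% (-9% to P5, F-test adjusted p = 0.2).

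Tfpi (chromosome 2, 84432855 to 84476775, minus strand), the inhibitor of the tissue factor pathway of coagulation that is made by endothelium, was at 36.5%, 72.9% and 71.0% at E15.5 and at 77.2%, 51.8% and 71.2% at E18.5. After birth it was at 34.1%, 24.6% and 31.9% (P5) and 28.0%, 50.9% and 49.3% (P8). The fall from E18.5 to P5 had an MV of -11% (F-test adjusted p = 0.3), and the P8 libraries lay below those of E18.5 but overlapped E15.5 replicate 1. The exon was skipped in most transcripts, with an inclusion of 18.6% to 38.8%, so this choice concerns a minor share of Tfpi RNA. Mean inclusion of the exon itself was 24.2% at E18.5 and 35.4% at P5, the interval of the call. The MV was -9% without E18.5 replicate 1, E18.5 replicate 3 or P5 replicate 2.

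Both called genes of the RNA, DNA and chromatin group encode enzymes that modify nucleic acids, and both had their lowest mean PSI at P5. Adarb1 (chromosome 10, 77290726 to 77418270, minus strand) encodes an adenosine deaminase that edits double-stranded RNA and is known to edit an acceptor of its own transcript; whether the site here is that acceptor was not tested. Its first site was at 78.9%, 55.6% and 64.8% at E15.5 and 40.7%, 38.1% and 48.7% at E18.5, then 33.9%, 30.3% and 25.9% in the P5 libraries and 36.2%, 41.1% and 52.7% in those of P8. The E15.5 libraries were above all others, and the fall to P5 had an MV of -15% (F-test adjusted p = 0.14). The gene rose from 112 CPM at E18.5 to 144 at P5 (log2 fold change 0.45 ± 0.09 SE, FDR = 0.00096 in edgeR), below the fold change threshold.

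Alkbh1 (chromosome 12, 87425840 to 87444017, minus strand) encodes a dioxygenase that demethylates nucleic acids. The last of its 3 acceptors was at 68.3%, 71.1% and 57.4% at E15.5 and 51.9%, 55.3% and 36.8% at E18.5, then 32.0%, 21.7% and 30.4% in the P5 libraries and 34.4%, 70.2% and 45.0% in those of P8. The fall from E15.5 to P5 had an MV of -13% (F-test adjusted p = 0.31), and P8 replicate 2 was back within the E15.5 range. Alkbh1 was the sole host gene of a called site past the expression threshold in the contrasts of adjacent time-points or of P8 with E15.5: it fell from 30.5 CPM at E15.5 to 13.4 at P8 (log2 fold change -1.11 ± 0.08 SE, FDR = 5.8e-08 in edgeR). Without P8 replicates 1 and 2 the log2 fold change was -0.97, which ends that call.

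Il3ra (chromosome 14, 14346275 to 14356011, plus strand), the ligand-binding chain of the interleukin-3 receptor, had E15.5 values below those of every later library. The second of its 3 acceptors was at 10.53%, 10.53% and 17.6% at E15.5, then at 46.8%, 45.2% and 40% (E18.5), 42.0%, 78.0% and 50% (P5) and 50%, 78.3% and 34.1% (P8). The rise to P5 had an MV of 13% (F-test adjusted p = 0.16). Reads were few, with 17 to 81 per library.

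Cox18 (chromosome 5, 90214724 to 90224001, minus strand) encodes an insertase of the inner mitochondrial membrane. Its first acceptor was at 57.6%, 94.4% and 65.1% at E15.5 and 64.5%, 65.4% and 26.8% at E18.5, then 23.1%, 31.3% and 64.2% in the P5 libraries and 35.3%, 34.7% and 30.4% in those of P8. The fall from E15.5 to P8 had an MV of -10%, which was -8% without E15.5 replicate 2 or P8 replicate 3 and -9% with matched replicate numbers. The F-test adjusted p was 0.41. Libraries of E18.5 and P5 lay on both sides, and 26 to 65 reads stood behind each value.

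Wdr13 (chromosome X, 8123301 to 8132892, minus strand), a WD-repeat protein, was the second called event whose embryonic and postnatal libraries did not overlap. The last of its 5 acceptors was at 25%, 0% and 27.0% at E15.5 and 19.1%, 9.88% and 5.36% at E18.5, then 46.0%, 50% and 33.9% in the P5 libraries and 28.3%, 32.1% and 38.4% in those of P8. The MV was 11% from E18.5 to P5, with an F-test adjusted p of 0.41. It was 9% without E18.5 replicate 2 or 3 or without P5 replicate 1 or 2. The gene rose over the same interval, from 36.1 to 56.9 CPM (log2 fold change 0.74 ± 0.09 SE, FDR = 6.6e-06 in edgeR), below the fold change threshold.

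The calls in Ppp3ca, Tmem131 and Ahcyl1 rested on few sequenced reads. At these sites the mappability correction turned a handful of reads into many corrected ones, and with uncorrected reads the MV of each was 0%. Ppp3ca (chromosome 3, 136670124 to 136937727, plus strand) encodes the catalytic subunit of calcineurin. Its second acceptor was at 0% in all 3 E15.5 libraries, then at 17.4%, 15.2% and 0% at E18.5, 27.0%, 8.91% and 26.2% at P5 and 13.7%, 15.4% and 16.9% at P8. The call was from E15.5 to P8 (MV 10%, F-test adjusted p = 0.044). The F-test call was lost with the replicate block (0.068) and when any library other than those of E18.5 was left out, with an adjusted p of up to 0.11. Behind these values stood 0 reads of the site at E15.5, of 504 reads of the event in all, which allows a share of up to 0.595% of uncorrected reads, and 0 to 5 reads in the later libraries, where uncorrected PSI was at most 2.13%.

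Tmem131 (chromosome 1, 36792191 to 36943666, minus strand) encodes a membrane protein with a role in collagen secretion, and it was the sole event called from E15.5 to E18.5. Its first acceptor was at 8.5%, 0% and 0% at E15.5 and 45.5%, 35.9% and 24.6% at E18.5, and then at 42.6%, 30.6% and 6.62% (P5) and 19.2%, 10.6% and 56.3% (P8). The MV was 14% and the F-test adjusted p 0.099. The reads of the site were 2, 0 and 0 at E15.5 and 7, 5 and 4 at E18.5, and corrected and uncorrected PSI differed by up to 45.2 points.

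Ahcyl1 (chromosome 3, 107663118 to 107696560, minus strand) encodes a relative of adenosylhomocysteinase that binds the inositol trisphosphate receptor, and it was the sole event called from P5 to P8 (MV -14%, and -12% from E15.5 to P8). Its first acceptor was at 56.1%, 76.2% and 56.3% at E15.5 and 49.8%, 0% and 48.0% at E18.5, then 69.2%, 56.3% and 64.2% in the P5 libraries and 38.9%, 33.0% and 0% in those of P8. Uncorrected PSI lay between 0% and 8.38%, the site had 0 to 14 reads in a library, and the F-test adjusted p was 0.5. Corrected and uncorrected PSI differed by over 20 points in at least 1 library for 125 of the 3285 sites, in 63 events (3.81%), while 3 of the 14 called events (21.4%) were of this kind. At 3022 sites they stayed within 5 points in every library.

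**Figure D3:**
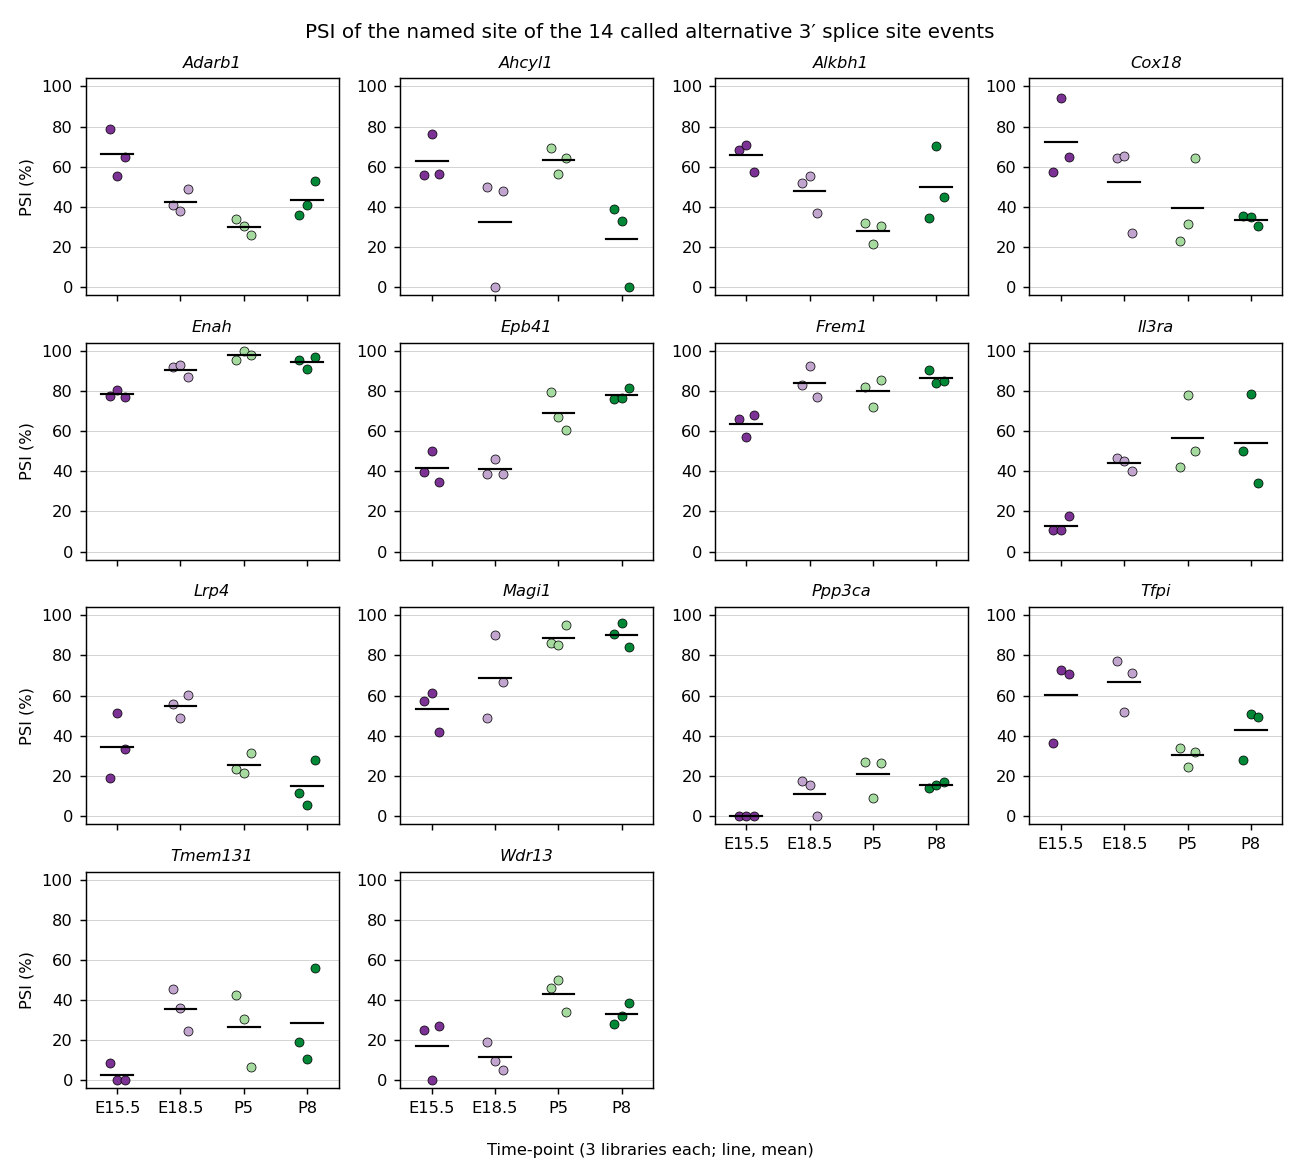
PSI (vertical axis, %) of the named acceptor of each of the 14 called events in the 3 libraries of each time-point (points), with the mean (line). Epb41 and Wdr13 show no overlap between embryonic and postnatal libraries, Enah, Frem1, Il3ra and Adarb1 separate E15.5 from the rest, and Ahcyl1 has a library at 0% at E18.5 and another at P8.

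Among the 12 host genes without a call, the listed sites of Itgav, Gpc2 and Mbd6 were higher in every E15.5 library than in any of E18.5. Those of Cuedc2 and 2010300C02Rik were lower. The share of all sites that separate in this way was not counted. The study chose these genes on the same libraries, so these values are a description. Itgav (integrin alpha V, a receptor for fibronectin, vitronectin and latent TGF-beta) had its first acceptor at 60.6%, 88.4% and 79.4% at E15.5 and 37.0%, 52.0% and 49.4% at E18.5, then 47.3%, 44.9% and 50.2% in the P5 libraries and 70.9%, 59.8% and 48.7% in those of P8. Its E15.5 libraries lay above all of E18.5 and P5 but ranged from 60.6% to 88.4% themselves. Gpc2, a cell surface heparan sulphate proteoglycan, was at 69.8%, 45.6% and 48.7% in the E15.5 libraries and between 10.2% and 32.0% in those of E18.5. Gpc2 RNA was low and fell over the same interval, from 3.6 to 1.1 CPM. Its log2 fold change was -1.71 ± 0.41 SE (FDR = 0.014 in edgeR), past both expression thresholds, as 3.04% of all genes were. Mbd6, a protein with a methyl-CpG-binding domain, was at 57.5%, 74.4% and 80.6% at first and between 26.1% and 56.4% in all 9 later libraries. In the other direction, Cuedc2 was between 7.23% and 25% at first and between 42.2% and 52.4% at E18.5, and 2010300C02Rik between 12.7% and 29.1% and then between 39.1% and 56.5%. The MV of this interval was -2% for Itgav, -8% for Gpc2, -3% for Mbd6, 6% for Cuedc2 and 7% for 2010300C02Rik. Matched replicate numbers gave 11 of the 12 genes an MV of at least 10% in some comparison of time-points, not necessarily this interval.

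The calls were also read without the libraries high in heart or thymus markers, which leaves a lone library at that time-point, whose own spread is then not represented. Without E15.5 replicates 1 and 2, 6 of the 9 named sites called against E15.5 kept an MV of at least 10%, and those of Alkbh1 (-7%), Il3ra (7%) and Frem1 (9%) did not. At Enah the MV was 12% without them, on E15.5 replicate 3 alone. Whether heart tissue bears on these calls was not tested. Without P8 replicates 1 and 2, 6 of the 7 named sites called against P8 kept it, and Lrp4 (-9%) did not. The MV of Epb41 was 29% without those P8 libraries, and that of Magi1 was 30% without the E15.5 libraries and 11% without the P8 ones. All 14 kept the direction of their difference in each of these settings.

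The levels of the host genes were compared over the same time-points. Of the 14 host genes, 0 passed an absolute log2 fold change above 1 at an edgeR FDR under 0.05 from E18.5 to P5, where 26.8% of 15994 genes did, and 0 did so under DESeq2. With the FDR alone, 5 of the 14 rose and 3 fell (71.1% of all genes passed it in either direction). From E15.5 to P8, where 32.3% of all genes passed both thresholds, Alkbh1 did, and 0 of the 14 did without the P8 libraries high in thymus markers. The median log2 fold change of the 14 was 0.17 from E18.5 to P5, beside 0.00 for all genes. From E15.5 to E18.5 (3.04% of all genes) and from P5 to P8 (2.96%) 0 of the 14 passed both thresholds, with 4 and 3 at the FDR alone and 0 under DESeq2. The FDR alone was passed by 21.51% and 17.96% of all genes in these contrasts.

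The 10 events past the F-test that the MV did not call were paired with no gene symbol, and most lay near 0% or 100%. Of the 22 sites past the F-test, 10 had a mean PSI from 5% to 10% or from 90% to 95%. Several sites passed these limits only through some time-points, so their separation is not independent of the selection. The E15.5 mean was 0.337% at MmuALTA0007234, 0% at MmuALTA0010996 and MmuALTA1032452 and 100% at MmuALTA0017393. At MmuALTA0010570 the P8 mean was 1.18%. The largest difference between the means of any 2 time-points was 21.4 points, at MmuALTA0010114. In MmuALTA0007234 the first of 3 acceptors was at 0%, 0% and 1.01% at E15.5 and between 3.51% and 9.8% in the 9 later libraries, with the lowest adjusted p of all (0.0086). The exon that carries it was included at 6.74% to 15.98%. MmuALTA0010996 (0.02) was at 0% in all E15.5 libraries (0 of 136 reads, which allows up to 2.21%) and between 2.62% and 15.96% later, and MmuALTA1032452 (0.049) was likewise at 0% at E15.5, where 0 of 160 reads allow up to 1.88%. In MmuALTA0017393 (0.045) the first acceptor was at 100% in all E15.5 libraries and between 89.3% and 97.9% in the rest. These 4 events separate E15.5 from most or all later libraries.

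In 4 events the embryonic and postnatal libraries did not overlap. MmuALTA0010570 (F-test adjusted p = 0.023) was between 4.23% and 16.1% before birth and between 0.52% and 2.12% after it. MmuALTA0010518 (0.046) lay between 3.45% and 7.92% and then between 11.5% and 28.7%, and MmuALTA0010114 (0.043) between 0% and 4.81% and then between 7.41% and 32.0%. The contrast of P5 with E18.5 did not pass for these 3 (limma adjusted p = 0.09, 0.099 and 0.44). MmuALTA0004310 (0.038), with 1516 to 3488 reads per library, had embryonic values between 73.0% and 76.0% and postnatal values between 66.2% and 71.6%. Its contrast of P5 with E18.5 passed (adjusted p = 0.028). It was a difference of 7.99 points at the depth of this event, with an MV of -4%.

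The last of these changed at a single time-point. MmuALTA0002390 (0.038) was between 96.3% and 98.8% at P8 and at most 90.2% before. MmuALTA0014599 (0.04) was at 100% in all E18.5 libraries and at 90.9%, 71.0% and 87.5% at P5, and its contrast across birth had an adjusted p of 0.014. The set depended on the fit: with PSI in percentage points in place of log2 odds, 1 of the 10 kept an adjusted p under 0.05 (MmuALTA0004310), and with each library left out in turn, 1 of the 10 kept it throughout (MmuALTA0007234). Without E15.5 replicates 1 and 2, 0 of the 10 kept it, and with the replicate block 2 of the 10 did (MmuALTA0007234 and MmuALTA0010570).

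**Figure D4:**
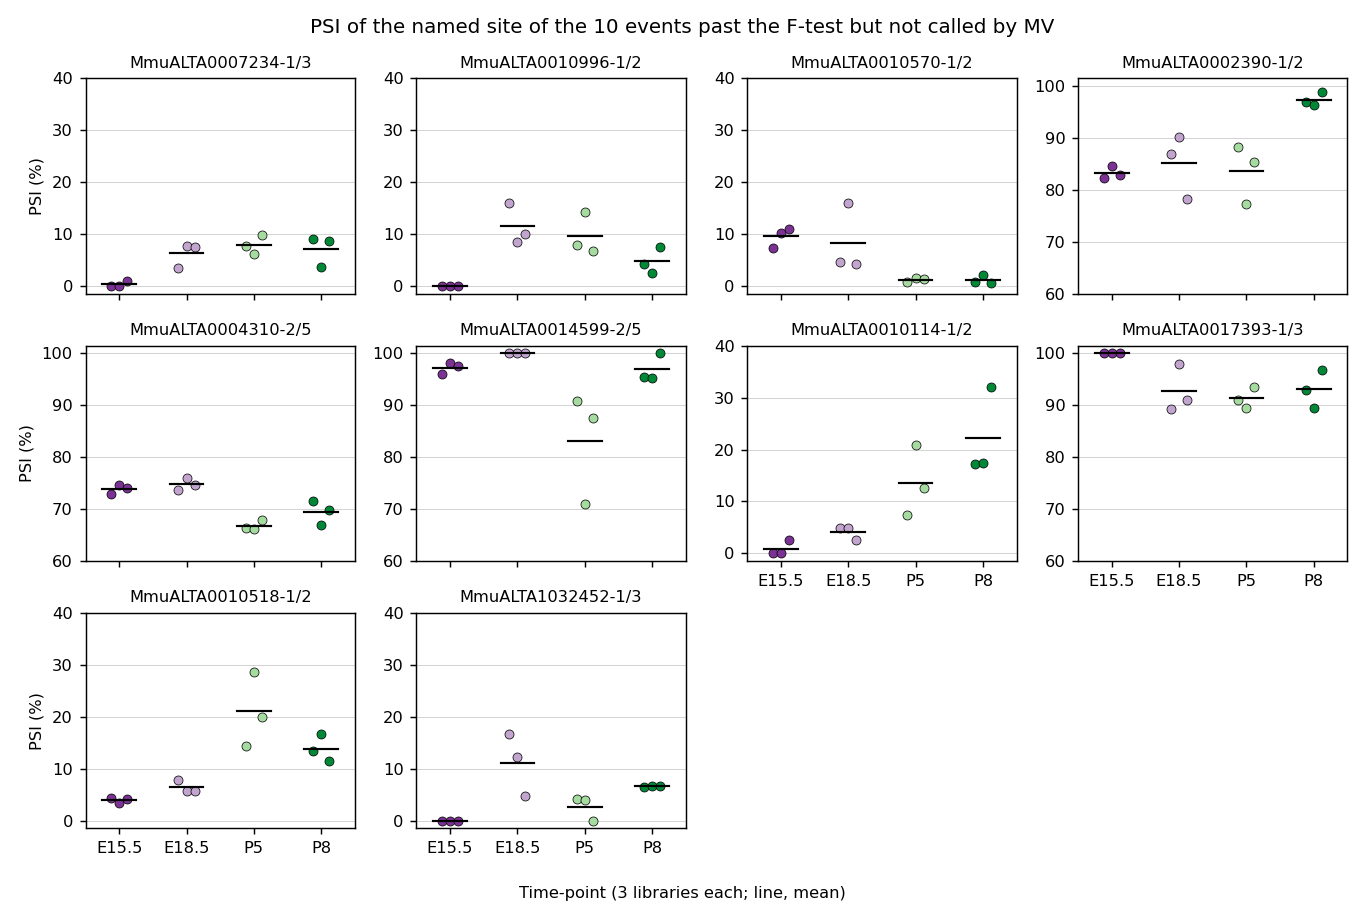
PSI (vertical axis, %; 0% to 40% or 60% to 100%) of the named acceptor of the 10 events past the limma F-test but without an MV call, in the 3 libraries of each time-point (points) with the mean (line). MmuALTA0010996, MmuALTA1032452 and MmuALTA0017393 sit at 0% or 100% at E15.5, and MmuALTA0002390 stands apart at P8.

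Embryonic and postnatal libraries did not overlap in PSI at 52 sites in 29 events. This is 1.58% of the sites, beside 4.43% of all events of the rule (7.35% of alternative exons and 4.97% of retained introns). Of the 29 events, 2 had an MV call and 5 passed the F-test. Mean PSI crossed 50% between the embryonic and the postnatal libraries at 115 sites, and at 6 of these the libraries did not overlap. Rtel1, a helicase of telomere maintenance and DNA repair that is in the RNA, DNA and chromatin group, was one of them: an acceptor of it, site number 3 of 4 listed, was between 30.6% and 48.1% before birth and between 48.8% and 76.3% after it, with an MV of at most 4%. Rtel1 RNA fell from 48.4 to 22.8 CPM over birth (log2 fold change -0.999, edgeR FDR = 1.7e-07), which was at the fold change threshold and not past it. MmuALTA1042460, with 171 to 310 reads per library, was between 46.4% and 55.8% before birth and between 60.7% and 73.7% after it, and its largest MV was 6%.

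RNAs of most factors that recognise the 3′ splice site were lower after birth by the FDR alone, and few passed the fold change threshold. The list holds 34 genes, of which 33 were tested and U2af1l4 was at or near 0 CPM in every library. From E18.5 to P5, 3 of the 33 fell by more than 1 on the log2 scale at an FDR under 0.05 and 0 rose, where 9.34% of all genes fell by this rule. These were Srsf7 (298 to 105 CPM, log2 fold change -1.43, edgeR FDR = 3.3e-08), Hnrnpa1 (874 to 341 CPM, -1.27, 9.3e-09) and Hnrnpc (391 to 183 CPM, -1.01, 8.2e-09), which bind exons and pyrimidine tracts and favour or block acceptors. By the FDR alone 28 of 33 fell and 2 rose, where 35.7% of all genes fell. The median log2 fold change of the list was -0.66, beside 0.00 for all genes.

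Among the core factors, U2af2 fell from 291 to 144 CPM (log2 fold change -0.93, edgeR FDR = 1.7e-08), U2af1 from 93.6 to 52.1 CPM (-0.76, 3.1e-06) and Sf3b3 of the U2 snRNP from 206 to 98.9 CPM (-0.97, 2.6e-07). Sf3b1, which contacts the branch point, fell by 0.49. The second-step factor Slu7 and the U2AF relative Zrsr1 rose, with log2 fold changes of 0.22 and 0.58 (FDR = 0.007 and 0.0047 in edgeR). Prpf18, Sugp1 and Sf3b6 had log2 fold changes of 0.05, -0.16 and -0.08 that did not pass (edgeR FDR = 0.44, 0.1 and 0.39). An acceptor of Slu7 itself is among the sites, with PSI from 0% to 60.3% and no call. Its uncorrected PSI was between 0% and 11.8%, on 0 to 17 reads of the site in a library, and the correction reached 48.5 points.

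From E15.5 to P8, 12 of the 33 factors fell past both thresholds and 0 rose, where 11.5% of all genes fell by this rule. Beside the 3 above these were U2af1, U2af2, Sf3a3, Phf5a, Ptbp2, Srsf1, Srsf2, Tra2a and Tra2b, with log2 fold changes from -1.02 to -1.47. Before birth and after P5, 0 of the 33 passed both thresholds in edgeR and in DESeq2. By the FDR alone, 15 fell and 0 rose from E15.5 to E18.5, and 1 fell and 3 rose from P5 to P8. Of all genes, 21.51% and 17.96% passed the FDR in either direction in these contrasts.

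**Figure D5:**
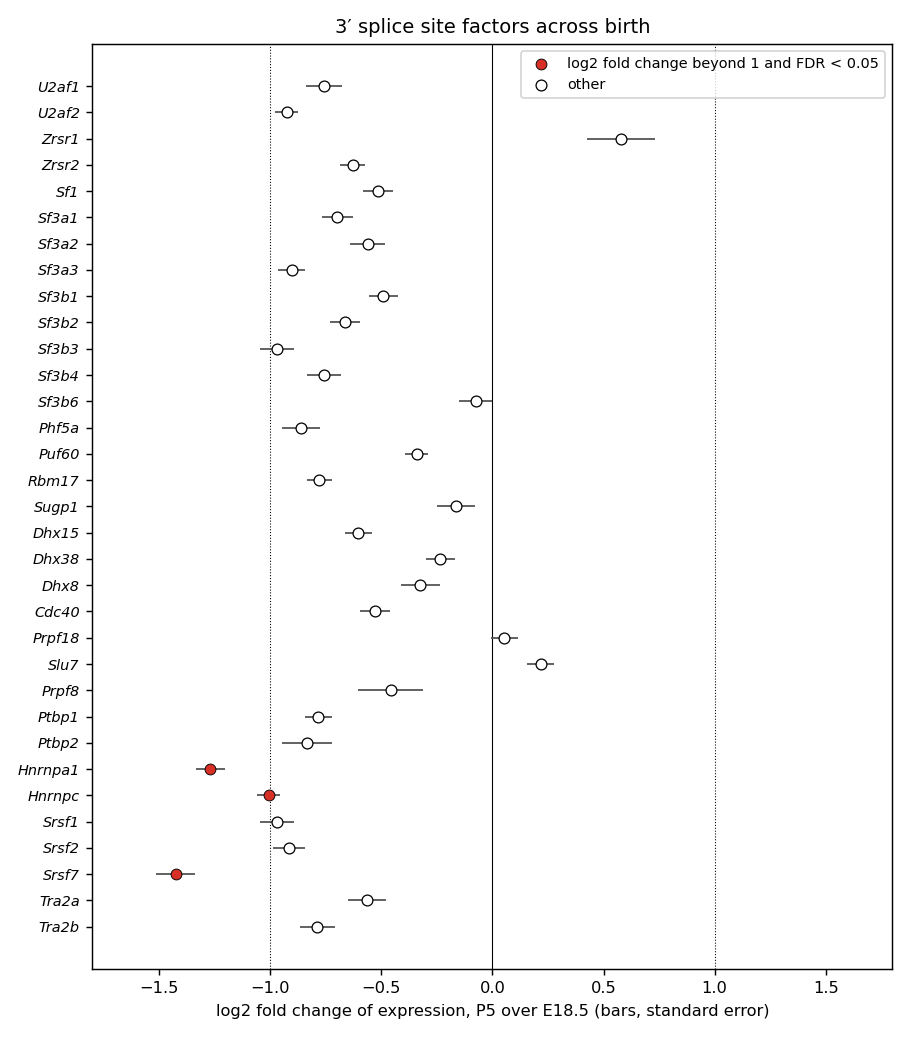
Log2 fold change of expression from E18.5 to P5 (horizontal axis) for the 33 tested factors of 3′ splice site recognition. Bars are the standard error derived from the edgeR F statistic. Factors past both thresholds are in red, and dotted lines mark a log2 fold change of 1 and -1. Srsf7, Hnrnpa1 and Hnrnpc lie beyond -1, and Zrsr1, Slu7 and Prpf18 lie above 0.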

How the data were processed

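Per the paper's methods and the submitters' processing notes, the authors mapped reads to VastDB events of mm10 with VAST-TOOLS 2.5.1 and deposited PSI as a percent, per event and library, with a quality string that holds read numbers before and after correction. Separately they aligned reads with TopHat2 2.1.1 and Bowtie2 2.3.4, counted them per gene with HTSeq 0.10.0, and deposited raw counts (41337443 to 53901957 per library) and CPM. The members and every list were chosen with earlier results of these data known.

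From these files, PSI and corrected reads of the 13981 events of the rule were used. The MV was computed from Beta(1 + inclusion, 1 + exclusion) distributions in bins of 0.5 points at a probability of 0.95. In limma 3.58.1, log2 odds (0.5 reads added on each side) were fitted with a variance trend on reads and adjusted by Benjamini-Hochberg over all events. Genes that reached 1 CPM in 3 or more libraries were tested in edgeR 4.0.16 (TMM, quasi-likelihood), with DESeq2 1.42.0 as an alternative. The SE given for expression is the absolute log2 fold change divided by the square root of the edgeR F statistic. R 4.3.3 and SciPy 1.17.1 were used, and methods were tested on simulated data. Named sites were 1 per event with an MV of at least 10%, and up to 10 more by F-test. The sites of Rtel1 and Slu7 were singled out after their values were seen. No pair of libraries had identical PSI. Event coordinates and sequences were not used here. Alternatives were matched replicate numbers, uncorrected reads, other MV thresholds, pseudocounts, weights and the PSI scale in limma, and each library left out in turn.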

Additional observations from a re-analysis of the deposited data

How the results depend on the processing

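At the 14 sites called by MV, the PSI difference kept its direction with uncorrected reads and with libraries left out. Leaving out a library of a time-point outside the comparison could not change it. The direction at the 10 F-test sites was not compared. With at least 1 library left out, 5 of the 14 MV calls and 9 of the 10 F-test calls were lost. Uncorrected reads lost 3 of the 14, and the replicate block lost 1 of the 14 (Cox18, -9%) and 8 of the 10. In the order any comparison, E15.5 to E18.5, E15.5 to P5, E15.5 to P8, E18.5 to P5, E18.5 to P8 and P5 to P8, the MV counts of 24, 2, 7, 11, 5, 4 and 2 became 45, 11, 13, 9, 8, 11 and 4 with libraries paired by replicate number (replicate block), and 96, 14, 35, 30, 23, 11 and 6 at an MV of 5%, or 2, 0, 0, 2, 0, 2 and 0 at 20%. With uncorrected reads they became 0 for E15.5 to E18.5 and P5 to P8, 11 for E15.5 to P5 and 7 for E15.5 to P8. Leaving out 1 library gave 31 to 67 for any comparison, then 2 to 20, 7 to 32, 11 to 22, 4 to 19, 4 to 12 and 2 to 8. 3 settings were chosen after seeing the data, and the lone library they leave at a time-point enters the MV with counting error alone. Without E15.5 replicates 1 and 2, high in heart markers, the MV counts were 143 for any comparison and 58, 73 and 57 against E18.5, P5 and P8. Without P8 replicates 1 and 2, high in thymus markers, they were 144 and 84, 55 and 52 against E15.5, E18.5 and P5. Without all 4 they were 351, and 58, 73, 274, 55 and 52 in the comparisons with a lone library. The 22 F-test sites became 6 with the replicate block, 62 with precision weights, 80 with every covered event fitted, 8, 10 and 8 without the heart-marker pair, the thymus-marker pair and all 4, and 6 to 25 with a library left out. For P5 against E18.5 (4 sites) the counts were 2 with the block, 17 on the PSI scale, 20 with weights, 33 with every covered event and 0 to 6 with a library left out. For E18.5 against E15.5 (0 sites) they were 4 without all 4 libraries and 0 to 11 with 1 left out, and for P8 against P5 (0 sites) 2 without the thymus-marker pair, 4 without all 4 and 0 to 4. For P8 against E15.5 (19 sites) they were 9, 6 and 4 without the heart pair, thymus pair and all 4, 96 with every covered event and 4 to 28. The 52 sites without overlap became 100, 105 and 208 without these libraries, and 55 to 77 with 1 left out, since fewer libraries can overlap. By FDR alone, 15, 30, 4 and 29 factors and 4, 8, 3 and 6 host genes passed in the adjacent contrasts and P8 against E15.5. Of all genes, 21.51%, 71.1%, 17.96% and 76.26% did so in the adjacent contrasts and in P8 against E15.5. The host gene called in the last was not called without the thymus-marker pair or all 4 (0). Same-numbered libraries did not deviate together (r from -0.0574 to 0.0494) more than libraries of other numbers (r from -0.0499 to 0.0588). No pairing by number was seen, but a correlation over all sites cannot exclude a link at some of them. The causes of these shifts were otherwise not tested.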
